A study of Mus musculus with 94 samples.

Results

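The tumors described here were taken 1 day after a single dose of 6 Gy and were compared with untreated controls of the same day. They were chosen by their labels alone, 5 tumors of the day 1 6 Gy group and 4 of the day 1 control group, or 9 of the 94 tumors of the series. Every tumor grew from 4T1 cells, a mouse mammary carcinoma line used as a model of triple-negative breast cancer, in the right hind limb of female BALB/c mice implanted at 8 weeks of age. The 6 Gy mice received x-rays to the tumor-bearing leg with the body shielded, and control mice received neither IR nor drug. A further 5 tumors from mice given indomethacin (INDO), an inhibitor of both cyclooxygenases, at 30 mg/L in drinking water and 5 tumors given 6 Gy + INDO entered the same day 1 fit. Another 20 tumors given 6 Gy and 16 controls, taken 3, 7, 15 and 23 days after IR, served the comparison over time. All tumors come from 1 cell line and were sequenced as bulk tissue slices that hold host cells, and no label ties a tumor to a named mouse, so p values measure only the spread between these samples.

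IR breaks DNA strands, and the kinases ATM and ATR answer by halting the cell cycle, often in G2, and by switching on repair. In cells with working p53 this adds a set of p53 targets such as Cdkn1a and Mdm2. The 4T1 line has been described as lacking functional p53, while the host cells of the tumor carry it. Lymphocytes are among the most radiosensitive cells of the body, whereas adipocytes, muscle fibers and most macrophages do not divide and are held to be resistant.

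The 9 libraries held 38.7 to 88.6 M counts (M, mega) in 6 Gy tumors and 42.1 to 74.3 M in controls, which limits precision mainly for genes at a few CPM. Structural RNA (snRNA, snoRNA, 7S and similar transcripts) took 16.0 ± 3.86% of counts in 6 Gy tumors and 9.30 ± 1.95% in controls (SD, n = 5 and 4, two-sided exact permutation p = 0.0238, 0.0476 adjusted over 2 shares, smallest possible 0.00794). Mitochondrially encoded genes took 3.49 ± 1.48% of counts in 6 Gy tumors and 3.56 ± 0.499% in controls (exact p = 0.976). On the first 2 principal components, which held 33.5% and 17.3% of the variance, 6 Gy replicate 3 and control replicate 2 stood apart from their groups. Epcam, Krt8 and the other epithelial markers expected of 4T1 were present in all 9 tumors, with a summed level of 3820 to 5080 CPM (counts scaled to the TMM library size) in 6 Gy tumors and 3650 to 4180 CPM in controls. Skeletal muscle, the tissue beside the implant, varied widely within both groups, and its 19 genes summed to 41.2 to 6070 CPM in 6 Gy tumors and 1740 to 6520 CPM in controls.

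One day after 6 Gy the transcripts of fat cells, lymphocytes, mast cells, complement and vessels were lower, many of them by 4-fold or more, whereas the rises were smaller and gathered in mitotic genes, small nuclear RNAs and some damage-response genes. Falls in the same lists were also called in INDO tumors, which were not irradiated, against the same controls. Fat transcripts were high in the day 1 controls beside later controls. Of 22276 genes tested, 1370 were called higher (6.15%) and 2100 lower (9.43%) after 6 Gy at an edgeR adjusted p under 0.05. These shares of all genes stand beside every list count of 6 Gy against control below. The falls were also the larger changes. At least 2-fold changes numbered 128 among the higher and 1273 among the lower genes, at least 4-fold changes 15 and 379, and the median log2 fold change was 0.48 among higher and -1.18 among lower genes, beside 0.06 over all genes tested. The 2 groups did not overlap in 769 of the higher and 1685 of the lower genes. Over all genes tested, called or not, 4.63% had every 6 Gy tumor above the controls and 8.86% every 6 Gy tumor below. Calls and lack of overlap come from the same tumors, so neither is separate support for the other. The rises depended on the tumors in the fit, on the filter and on scaling. Fitting only the 9 tumors of the 2 groups gave 376 higher and 1596 lower calls. A fit of all 94 tumors gave 580 and 1354, and leaving out the filter on low counts gave 479 and 1870. When libraries were scaled by 14 housekeeping genes, the median of all genes moved by -0.16 and the calls became 256 higher and 2756 lower, so that 8.50% of calls were rises, compared with 39.5% with TMM scaling. Leaving out 1 tumor moved the higher calls between 716 (without 6 Gy replicate 4) and 2204 (without 6 Gy replicate 2) and the lower calls between 1618 and 2205. With the structural RNA share as a covariate, 1095 genes were higher and 1958 lower. Many genes named below were picked from their list by small p, which favors a gap between the groups and a call that holds. In bulk tumors, fewer cells of a type and less RNA per cell cannot be told apart, which holds for every cell type marker below.

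**Figure D1:**
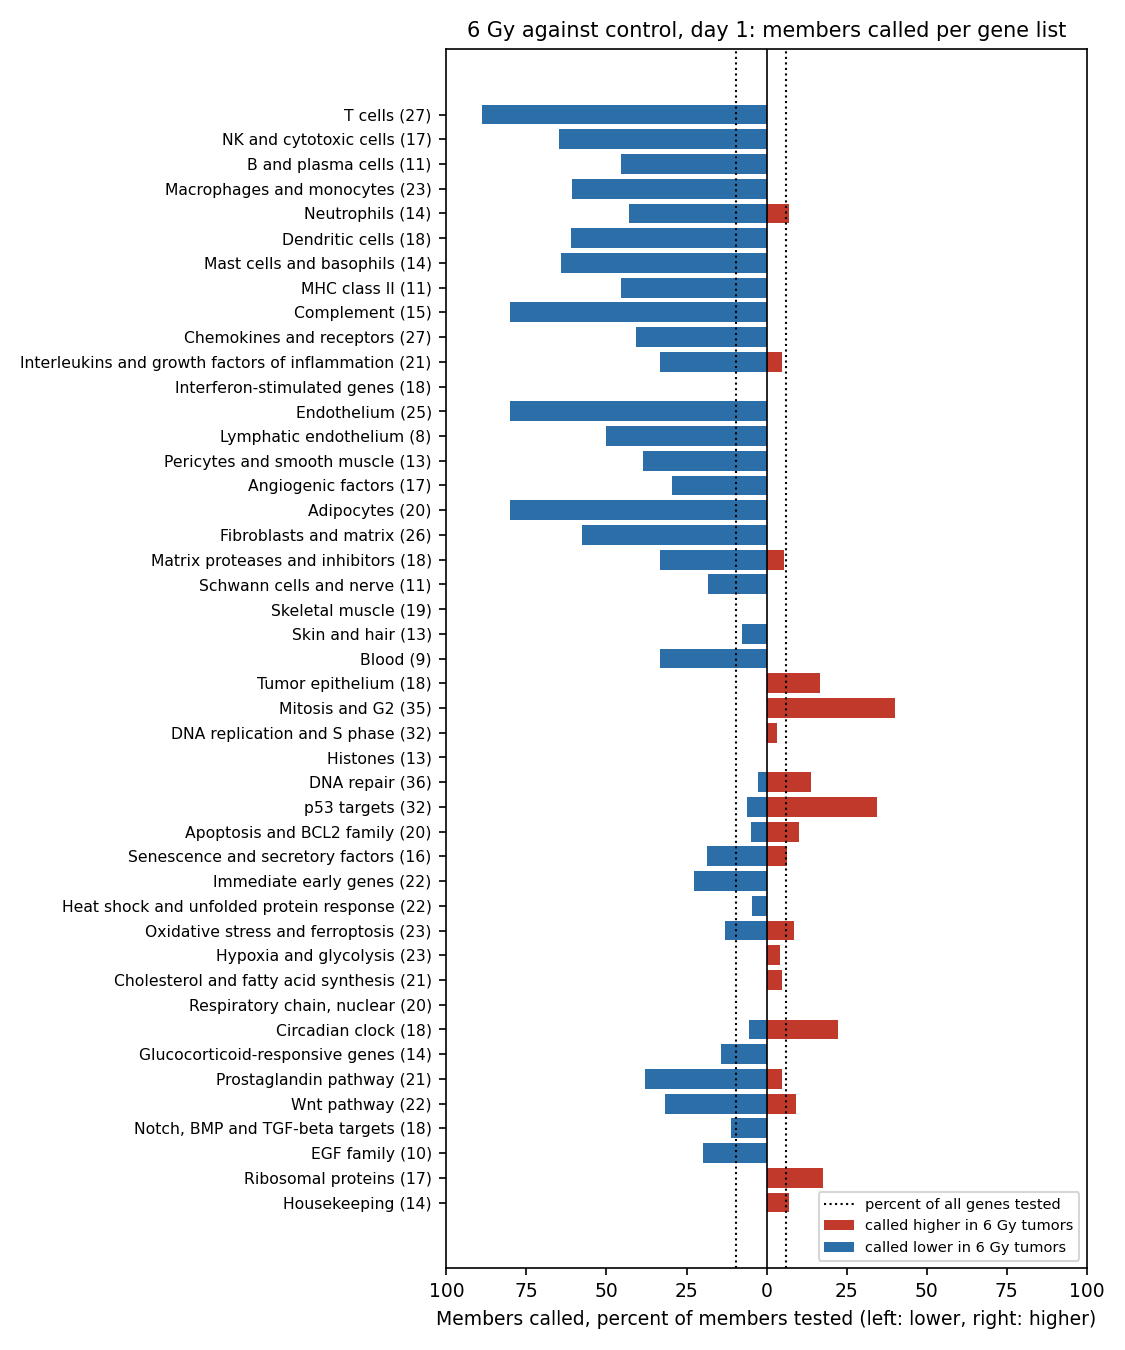
Share of the members of each of 45 gene lists called higher (red, right) or lower (blue, left) in 6 Gy tumors than in controls on day 1, as a percent of the members tested (number in brackets). Dotted lines mark the share of all genes tested, 6.15% higher and 9.43% lower, and the T cell list reaches 24 of 27 lower while the mitotic list reaches 14 of 35 higher.

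The largest falls among genes of at least moderate level were taken from called genes whose groups did not overlap, so the absence of overlap in these genes was fixed by the choice. Cfd, the adipocyte protease complement factor D, measured 2.44, 0.648, 0.21, 0.645 and 0.208 CPM in 6 Gy tumors, against 39.5, 7.25, 30.7 and 16 CPM in control tumors (log2 fold change -4.84 ± 0.96, edgeR adjusted p = 0.00223). Among the irradiated tumors, 6 Gy replicate 1 was the highest. Adamts15, a protease that cuts matrix proteoglycans, had 2.5, 0.549, 1.91, 1.66 and 1.44 CPM in 6 Gy tumors, against 22.2, 11.5, 23.9 and 26 CPM in control tumors (log2 fold change -3.69 ± 0.52, edgeR adjusted p = 0.000108). Car4, a membrane carbonic anhydrase of capillaries, had 3.56, 2.94, 1.31, 0.461 and 0.596 CPM in 6 Gy tumors, against 17.9, 20.6, 18.2 and 32.5 CPM in control tumors (log2 fold change -3.67 ± 0.51, edgeR adjusted p = 9.52e-05). Hp, which encodes the hemoglobin-binding acute phase protein haptoglobin, had 9.06, 2.87, 3.05, 3.53 and 2.54 CPM in 6 Gy tumors, against 88, 19.2, 62.9 and 37.2 CPM in control tumors (log2 fold change -3.62 ± 0.44, edgeR adjusted p = 2.31e-05). Control replicate 2 was the lowest control for Cfd, Adamts15 and Hp. Serpina3n and Saa3, acute phase genes as well, changed by -3.58 and -3.45 on the log2 scale (edgeR adjusted p = 0.00557 and 8.79e-05). Enpp2, which encodes the lipid-signalling enzyme autotaxin, reached 45.3, 13.6, 6.13, 7.97 and 7.38 CPM in 6 Gy tumors, against 184, 139.5, 145 and 228 CPM in control tumors (log2 fold change -3.44 ± 0.59, edgeR adjusted p = 0.000695), and Ptx3, a soluble pattern recognition protein, fell as well (log2 fold change -3.43 ± 0.69, edgeR adjusted p = 0.00238). Col6a5, a collagen VI chain, fell (log2 fold change -3.40 ± 0.59, edgeR adjusted p = 0.00071), and its controls ran unevenly, with 17.7, 13.4, 15.6 and 87.1 CPM. The C-type lectin genes Cd209a, Cd209e and Cd209g fell by 3.49, 3.64 and 3.44 on the log2 scale, though these near-identical copies could share reads. The genes named so far in this paragraph each kept their call under every alternative run. Car3, a muscle and fat carbonic anhydrase, had the same direction (log2 fold change -3.55 ± 1.07, edgeR adjusted p = 0.0303), but its call was lost without 6 Gy replicate 2, 3, 4 or 5 or control replicate 1, 3 or 4 (edgeR adjusted p up to 0.0754).

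Of the 15 largest rises, chosen in the same way, 9 were in structural RNAs. The U1 small nuclear RNA gene Rnu1b6, part of the spliceosome, measured 178, 144, 70.5, 158 and 70.6 CPM in 6 Gy tumors, against 11.9, 33.3, 56.5 and 41 CPM in control tumors (log2 fold change 1.80 ± 0.45, edgeR adjusted p = 0.0115). The U3 small nucleolar RNA genes Rnu3a and Rnu3b1 to Rnu3b4, which guide ribosomal RNA processing, rose by 1.68 to 1.70 on the log2 scale, and the 7SL RNA genes Rn7s1 and Rn7s2 of the signal recognition particle by 1.61 each. Copies within these families share reads, so their counts are uncertain gene by gene. Among 45 snRNA genes tested, 11 were higher (24.4%) and 0 lower by edgeR, beside 6.15% of all genes higher. Among 92 snoRNA genes 4 were higher (4.35%) and 0 lower, a smaller share of rises than over all genes. These genes are counted in the structural RNA share given above, so that they move with it is built in. For the same reason, a fit with that share as a covariate is no separate test of their rises. That share was also high in the other treated tumors of day 1, at 17.8 to 25.1% with INDO, which were not irradiated, and 11.7 to 35.3% with 6 Gy + INDO. With that share as a covariate the calls on Rnu1b6, Rnu3a and Rnu3b1 were lost, and without control replicate 1 that on Rnu3b1 was lost too, whereas those on Rn7s1 and Rn7s2 held and were lost without 6 Gy replicate 3 and control replicate 2 together.

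Protein-coding genes among the largest rises were few and of mixed function. Cyp2c55, a cytochrome P450 of fatty acid metabolism, measured 5.04, 4.49, 13.4, 11.3 and 10.3 CPM in 6 Gy tumors, against 3.17, 4.04, 3.46 and 3.6 CPM in control tumors (log2 fold change 1.32 ± 0.27, edgeR adjusted p = 0.00251). Replicates 3 to 5 of the 6 Gy group were well above the controls and replicates 1 and 2 only just above. Spp1, which encodes the secreted protein osteopontin, had 1103, 1030, 2854, 2552 and 1695 CPM in 6 Gy tumors, against 724, 810.5, 866 and 677 CPM in control tumors (log2 fold change 1.26 ± 0.28, edgeR adjusted p = 0.00438). Cp, the copper-carrying ferroxidase ceruloplasmin, had 48.7, 58, 164, 118 and 66 CPM in 6 Gy tumors, against 32.9, 38.1, 41.5 and 38.1 CPM in control tumors (log2 fold change 1.27 ± 0.33, edgeR adjusted p = 0.0144). The absence of overlap with the controls was fixed by the choice of these genes. Aqp5, a water channel of glandular epithelium, rose (log2 fold change 1.08 ± 0.21, edgeR adjusted p = 0.00221), as did Bend5 (log2 fold change 1.05 ± 0.22, edgeR adjusted p = 0.00304) and Siglec15, an immunoregulatory lectin (log2 fold change 1.07 ± 0.27, edgeR adjusted p = 0.0118). Housekeeping scaling left Siglec15 uncalled (0.90), and without 6 Gy replicate 3 and control replicate 2 together Cp was uncalled.

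T cell transcripts showed the most complete fall of any immune list. Of 27 T cell genes tested, 24 were lower and 0 higher, with a median log2 fold change of -1.90, beside 0.06 for all genes and 9.43% of all genes lower. Cd3e, a chain of the T cell receptor complex, measured 0.783, 0.798, 0.126, 0.415 and 0.346 CPM in 6 Gy tumors, against 3.64, 1.83, 3.01 and 4.3 CPM in control tumors (log2 fold change -2.72 ± 0.57, edgeR adjusted p = 0.00341). Cd4, the coreceptor of helper T cells, had 2.74, 1.67, 0.713, 0.584 and 0.471 CPM in 6 Gy tumors, against 6.87, 4.2, 6.39 and 8.73 CPM in control tumors (log2 fold change -2.42 ± 0.52, edgeR adjusted p = 0.00384). In both genes every irradiated tumor was below every control. The costimulatory receptor Cd28 (log2 fold change -2.76 ± 0.36, edgeR adjusted p = 5.21e-05), the kinase Lck (log2 fold change -1.62 ± 0.24, edgeR adjusted p = 0.00017) and the adaptor Lat (log2 fold change -2.53 ± 0.29, edgeR adjusted p = 1.54e-05) of T cell receptor signalling fell alongside. The calls on these 5 genes held under every alternative run, which the choice of Cd28, Lck and Lat by small p favors. The list count was 17 without control replicate 4 and at most 25.

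Natural killer and B cell transcripts fell in part. Of 17 NK and cytotoxic genes, 11 were lower and 0 higher (median -2.21). Ncr1, the activating NK receptor NKp46, measured 0.152, 0, 0.0699, 0.0461 and 0.0693 CPM in 6 Gy tumors, against 0.856, 0.513, 1.28 and 1.73 CPM in control tumors (log2 fold change -3.97 ± 0.73, edgeR adjusted p = 0.00125), and Nkg7, a granule protein, fell (log2 fold change -3.03 ± 0.55, edgeR adjusted p = 0.00102). The granule protease gene Gzmb did not pass the test. It had 3.89, 7.26, 0.978, 1.24 and 0.845 CPM in 6 Gy tumors, against 6.36, 3.53, 7.14 and 9.6 CPM in control tumors (log2 fold change -1.24 ± 0.73, edgeR adjusted p = 0.276), and 6 Gy replicates 1 and 2 lay among the controls. Of 11 B and plasma cell genes, 5 were lower (median -1.11). Ighm, the heavy chain of IgM, had 0.891, 0.374, 1.19, 1.4 and 1.16 CPM in 6 Gy tumors, against 5.93, 2.5, 5.35 and 5.81 CPM in control tumors (log2 fold change -2.27 ± 0.36, edgeR adjusted p = 0.000317), while the B cell receptor gene Cd79a was near the detection floor in both groups with a highest value of 0.363 CPM (log2 fold change -1.08 ± 0.47, edgeR adjusted p = 0.127).

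Myeloid transcripts fell less evenly. Of 23 macrophage and monocyte genes, 14 were lower and 0 higher (median -0.81). Csf1r, the receptor for the macrophage growth factors CSF1 and IL-34, measured 98.4, 88.8, 119.9, 93.3 and 75.8 CPM in 6 Gy tumors, against 291, 199, 209.9 and 234 CPM in control tumors (log2 fold change -1.29 ± 0.12, edgeR adjusted p = 1.71e-06). The groups were clearly apart, as they were for Adgre1, the F4/80 antigen (log2 fold change -0.87 ± 0.14, edgeR adjusted p = 0.000339), and Folr2, a folate receptor of resident macrophages (log2 fold change -1.64 ± 0.17, edgeR adjusted p = 4.5e-06). Il34, a ligand of Csf1r, was the 1 gene called higher among 21 interleukin and inflammatory growth factor genes. It had 15.6, 15.7, 16.3, 13 and 14.1 CPM in 6 Gy tumors, against 11.4, 10.3, 11.9 and 8.93 CPM in control tumors (log2 fold change 0.49 ± 0.09, edgeR adjusted p = 0.00171). Dab2, an endocytic adaptor chosen after its values were seen, fell with little spread and had 96.7, 85.6, 92.8, 89.4 and 83.6 CPM in 6 Gy tumors, against 213, 219.9, 257 and 289.5 CPM in control tumors (log2 fold change -1.45 ± 0.11, edgeR adjusted p = 2.87e-07).

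Neutrophil genes split. Of 14 tested, 6 were lower and 1 higher (median -0.74), and 3 were lower without control replicate 3. The granulocyte colony-stimulating factor receptor gene Csf3r had 18.7, 17.6, 6.72, 7.14 and 9.72 CPM in 6 Gy tumors, against 44.3, 29.8, 37.7 and 37.3 CPM in control tumors (log2 fold change -1.64 ± 0.27, edgeR adjusted p = 0.000455), and the chemokine receptor gene Cxcr2 fell too (log2 fold change -1.23 ± 0.30, edgeR adjusted p = 0.0097). S100a8, a defining neutrophil marker, had 3.67, 2.39, 3.69, 2.47 and 2.18 CPM in 6 Gy tumors, against 5.26, 2.46, 6.48 and 9.01 CPM in control tumors and did not pass (log2 fold change -1.01 ± 0.37, edgeR adjusted p = 0.0752). Padi4, a histone-citrullinating enzyme named after its values were seen, was the 1 member called higher (log2 fold change 0.45 ± 0.15, edgeR adjusted p = 0.0426), a call lost with housekeeping scaling and without 6 Gy replicate 2, 3 or 4 or control replicate 1, 3 or 4 (edgeR adjusted p up to 0.135).

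Dendritic and mast cell genes were lower in most cases. Of 18 dendritic cell genes 11 were lower and 0 higher (median -1.02). Flt3, the receptor for the dendritic cell growth factor FLT3L, had 1.91, 1.6, 0.615, 0.738 and 0.817 CPM in 6 Gy tumors, against 5.56, 3.36, 4.87 and 6.44 CPM in control tumors (log2 fold change -2.16 ± 0.42, edgeR adjusted p = 0.00177). Clec9a and Xcr1, markers of cross-presenting dendritic cells, fell (-2.10, edgeR adjusted p = 6.06e-05, and -1.73, edgeR adjusted p = 0.0037), and so did Siglech, a marker of plasmacytoid dendritic cells (log2 fold change -3.83 ± 0.56, edgeR adjusted p = 0.000137). Of 14 mast cell and basophil genes 9 were lower (median -1.77), but 4 without control replicate 1 or 6 Gy replicate 4, 5 without control replicate 4 and 5 with the structural RNA share as a covariate. Cpa3, the carboxypeptidase of mast cell granules, had 2.65, 2.12, 0.685, 1.35 and 1.25 CPM in 6 Gy tumors, against 9.55, 4.28, 8.5 and 9.57 CPM in control tumors (log2 fold change -2.31 ± 0.42, edgeR adjusted p = 0.00104), and the stem cell factor receptor gene Kit fell as well (log2 fold change -1.03 ± 0.21, edgeR adjusted p = 0.00236).

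Of 11 MHC class II genes, which present antigen to helper T cells, 5 were lower (median -0.91). The count rested on single tumors, with 1 gene called without control replicate 1 or 4, 2 without control replicate 3 or 6 Gy replicate 4 or 5, 3 without 6 Gy replicate 3, and 8 with housekeeping scaling. H2-Aa had 82.5, 54.1, 53, 57.5 and 45.9 CPM in 6 Gy tumors, against 161, 47.5, 117 and 139 CPM in control tumors (log2 fold change -0.98 ± 0.29, edgeR adjusted p = 0.0254), and control replicate 2 lay among the 6 Gy tumors. The same order held for the invariant chain gene Cd74 (log2 fold change -0.98 ± 0.27, edgeR adjusted p = 0.0179) and for Ciita, the coactivator that drives these genes (log2 fold change -1.10 ± 0.32, edgeR adjusted p = 0.0271). Calls on all 3 genes were lost without control replicate 1 and without control replicate 4.

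Complement transcripts fell as a set of 12 of 15 (0 higher, median -1.59). C4b, a component of the classical and lectin pathways, measured 12.9, 12.2, 8.16, 5.84 and 5.68 CPM in 6 Gy tumors, against 64.5, 24.1, 52.1 and 41.1 CPM in control tumors (log2 fold change -2.35 ± 0.39, edgeR adjusted p = 0.000479). C1s1, the protease of the C1 complex, measured 7.72, 5.51, 7.22, 5.61 and 4.48 CPM in 6 Gy tumors, against 32.9, 13, 32.2 and 32.6 CPM in control tumors (log2 fold change -2.18 ± 0.38, edgeR adjusted p = 0.000785). In each the groups did not overlap. C3, on which the complement pathways converge, did not pass, with 212, 398, 187, 94.7 and 73.2 CPM in 6 Gy tumors, against 286, 195, 247 and 398 CPM in control tumors (log2 fold change -0.55 ± 0.39, edgeR adjusted p = 0.37).

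Among 27 chemokine and receptor genes 11 were lower and 0 higher (median -1.09). Cxcl12, a stromal chemokine that retains leukocytes and stem cells, had 7.22, 1.42, 4.16, 5.41 and 6.57 CPM in 6 Gy tumors, against 64.1, 34.7, 66.9 and 48.3 CPM in control tumors (log2 fold change -3.43 ± 0.48, edgeR adjusted p = 9.27e-05). Ccl9, a mouse myeloid chemokine, had 32.7, 24.9, 31.7, 24.6 and 23.9 CPM in 6 Gy tumors, against 82.3, 70, 99 and 95.8 CPM in control tumors (log2 fold change -1.65 ± 0.14, edgeR adjusted p = 6.66e-07). Both were lower in every irradiated tumor than in any control, as was Cxcl5, a neutrophil attractant (log2 fold change -1.83 ± 0.23, edgeR adjusted p = 4.16e-05). Ccl2, the main monocyte attractant, was no different beyond its spread, with 9.83, 8.83, 18.6, 19.4 and 25.1 CPM in 6 Gy tumors, against 15.1, 15.1, 23.1 and 19.8 CPM in control tumors (log2 fold change -0.16 ± 0.28, edgeR adjusted p = 0.751).

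Of 21 interleukin and inflammatory growth factor genes, 7 were lower and 1, Il34, higher (median -0.25), with 3 lower without control replicate 4 and 4 without control replicate 1 or 3 or 6 Gy replicate 4 or 5. Il1b, a pyrogenic cytokine, had 41.5, 44.7, 62.9, 46.2 and 38.8 CPM in 6 Gy tumors, against 69.3, 48.8, 75.1 and 79.3 CPM in control tumors (log2 fold change -0.54 ± 0.15, edgeR adjusted p = 0.0171), and Tgfb1, a cytokine that restrains lymphocytes and builds matrix, had 22.9, 26.1, 29.2, 19.1 and 15.8 CPM in 6 Gy tumors, against 51.3, 41, 33.3 and 28.5 CPM in control tumors (log2 fold change -0.77 ± 0.19, edgeR adjusted p = 0.0103). Il1b was uncalled without control replicate 3 or 4 and Tgfb1 without control replicate 1. Il6 measured 2.33, 2.62, 1.69, 1.31 and 1.48 CPM in 6 Gy tumors. Those values were all below the lowest control, at 4.69 CPM. No interferon-stimulated gene passed the test. Of 18 tested, 0 were called in either direction by edgeR on day 1 (median -0.24, 1 lower at an unadjusted p under 0.05 and 1 lower by DESeq2), and Isg15, a ubiquitin-like modifier, had 50.2, 48.3, 66.1, 43.4 and 35.4 CPM in 6 Gy tumors, against 55.9, 39.6, 57.8 and 60.2 CPM in control tumors (log2 fold change -0.13 ± 0.27, edgeR adjusted p = 0.779).

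**Figure D2:**
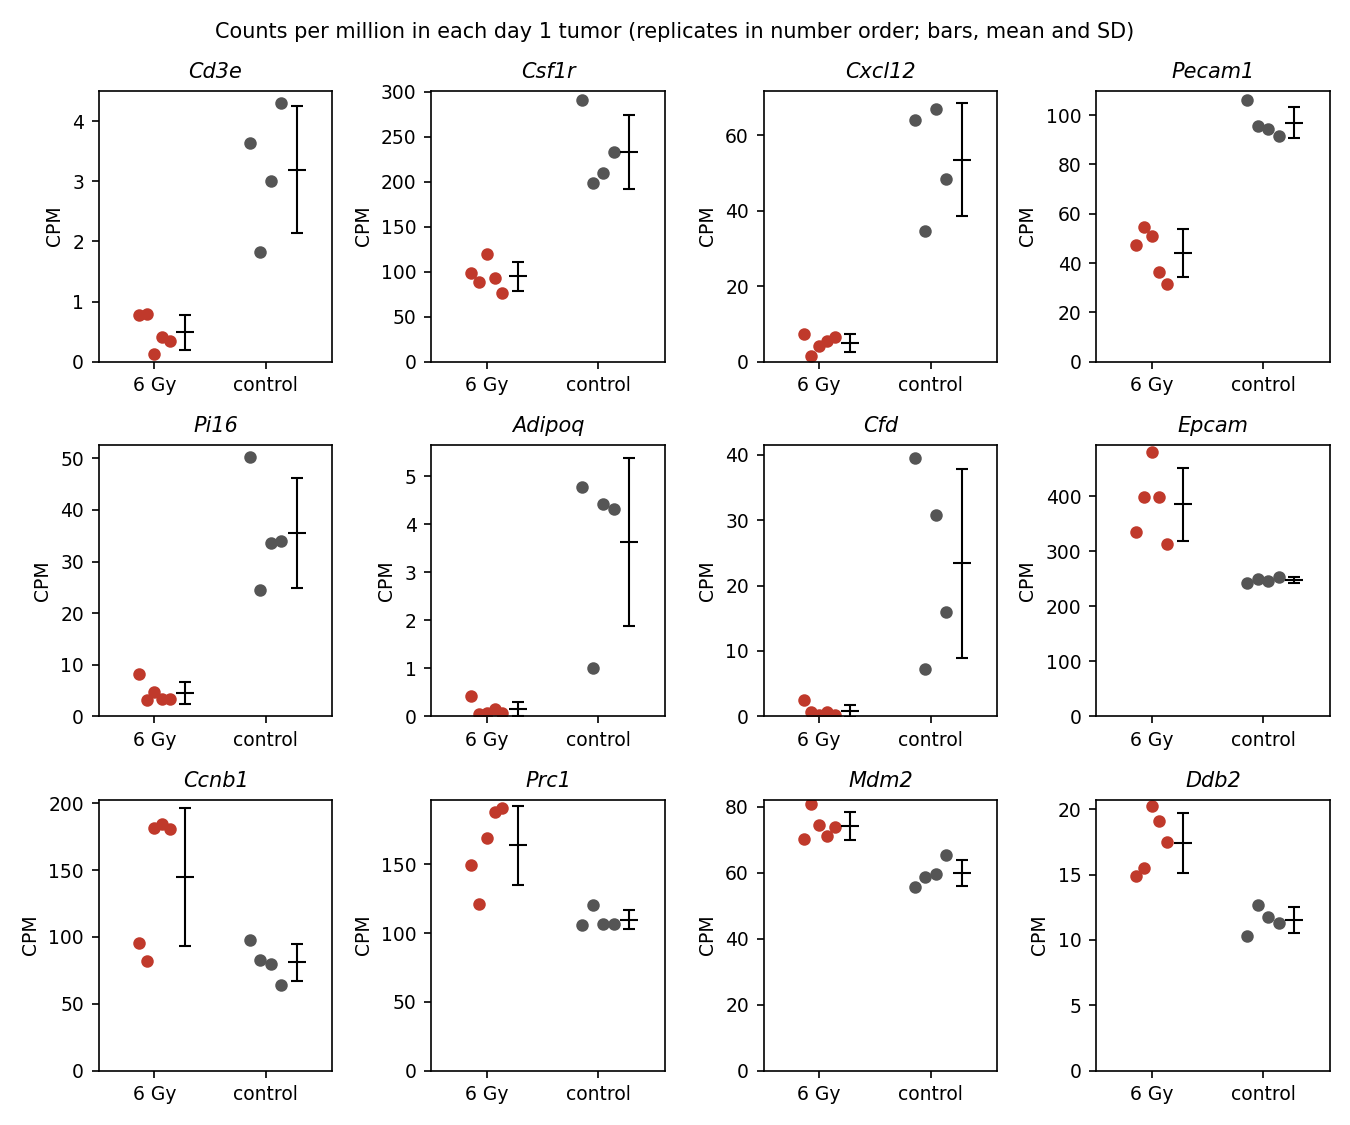
Level of 12 genes in CPM (TMM-scaled, vertical axis from 0) in each of 5 6 Gy tumors (red, left) and 4 control tumors (gray, right), with mean and SD beside the points. Cd3e, Csf1r, Cxcl12, Pecam1, Pi16, Adipoq and Cfd were lower in all 5 6 Gy tumors than in any control, while Ccnb1 was above the controls in 3 of 5.

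Most endothelial genes and a smaller share of lymphatic and mural genes were lower. Of 25 endothelial genes 20 were lower and 0 higher (median -1.04). Pecam1, the junction molecule CD31, measured 47.2, 54.5, 51, 36.5 and 31.5 CPM in 6 Gy tumors, against 106, 95.6, 94.2 and 91.6 CPM in control tumors (log2 fold change -1.14 ± 0.17, edgeR adjusted p = 0.00024). Cdh5, the adherens junction protein VE-cadherin, had 27, 21.2, 42.6, 30 and 22.5 CPM in 6 Gy tumors, against 76.1, 64.7, 65.4 and 46.4 CPM in control tumors (log2 fold change -1.14 ± 0.20, edgeR adjusted p = 0.000901). Tek, the angiopoietin receptor TIE2 (log2 fold change -1.58 ± 0.23, edgeR adjusted p = 0.00017), and the endothelin receptor gene Ednrb (log2 fold change -2.64 ± 0.29, edgeR adjusted p = 1e-05) fell further. None of these genes overlapped between groups, and all kept their calls under every alternative run. Tek and Ednrb were named for their small p values, which favors both. Of the 25 endothelial genes, 14 had every 6 Gy tumor below the controls, beside 8.86% of all genes. Of 8 lymphatic genes 4 were lower (median -1.57). The count was 7 without 6 Gy replicate 1, and 3 without 6 Gy replicate 3, 4 or 5 or control replicate 1, 3 or 4. Lyve1, a hyaluronan receptor of lymphatic vessels and some macrophages, fell (log2 fold change -2.02 ± 0.32, edgeR adjusted p = 0.000289), while the lymphatic master regulator Prox1 did not pass (log2 fold change -1.22 ± 0.59, edgeR adjusted p = 0.175).

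Of 13 pericyte and smooth muscle genes 5 were lower and 0 higher (median -0.73). Rgs5, a pericyte regulator of G protein signals, had 28.8, 11.8, 50, 39.1 and 26.1 CPM in 6 Gy tumors, against 109, 70.8, 108 and 103 CPM in control tumors (log2 fold change -1.65 ± 0.28, edgeR adjusted p = 0.000665), and Pdgfrb (log2 fold change -0.73 ± 0.12, edgeR adjusted p = 0.000387) and the smooth muscle myosin gene Myh11 (log2 fold change -1.44 ± 0.18, edgeR adjusted p = 4.25e-05) also fell. Of 17 angiogenic factor and receptor genes 5 were lower and 0 higher, with a median of 0.02, beside 9.43% of all genes tested lower. Vegfa, the main driver of vessel growth, was not called, with 69.7, 107, 65.1, 45.5 and 44.6 CPM in 6 Gy tumors, against 66.3, 67.9, 56.2 and 65.5 CPM in control tumors (log2 fold change 0.05 ± 0.24, edgeR adjusted p = 0.907). Hgf, a growth factor of stromal origin, had 6.3, 3.74, 4.85, 4.86 and 4.57 CPM in 6 Gy tumors, against 11.3, 9.93, 15.1 and 16.8 CPM in control tumors (log2 fold change -1.45 ± 0.18, edgeR adjusted p = 3.54e-05), and the apelin receptor gene Aplnr fell (log2 fold change -2.05 ± 0.47, edgeR adjusted p = 0.00678).

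The deepest fall of any list was in adipocyte genes. Of 20 tested, 16 were lower and 0 higher, with a median log2 fold change of -2.63, and 10 were lower without 6 Gy replicate 4. Adipoq, the hormone adiponectin, measured 0.413, 0.0499, 0.0699, 0.154 and 0.0693 CPM in 6 Gy tumors, against 4.77, 1.01, 4.42 and 4.32 CPM in control tumors (log2 fold change -4.61 ± 0.74, edgeR adjusted p = 0.000374). Plin1, the coat protein of lipid droplets, had 0.391, 0.0499, 0.0559, 0.261 and 0.0554 CPM in 6 Gy tumors, against 5.86, 1.18, 4.71 and 2.29 CPM in control tumors (log2 fold change -4.44 ± 0.91, edgeR adjusted p = 0.00285). The droplet-fusing protein gene Cidec (log2 fold change -4.72 ± 0.84, edgeR adjusted p = 0.000884) and the leptin gene Lep (log2 fold change -4.72 ± 0.79, edgeR adjusted p = 0.000497) fell as far. Lpl, the lipase that frees fatty acids from lipoproteins, fell at a higher level, with 9.3, 2.27, 4.26, 4.5 and 4.68 CPM in 6 Gy tumors, against 64.9, 26.8, 74.3 and 68.2 CPM in control tumors (log2 fold change -3.55 ± 0.65, edgeR adjusted p = 0.00118). In these genes no irradiated tumor reached the lowest control, which was replicate 2 in each. The day 1 controls were themselves high in fat transcripts. Against the mean of control tumors on days 3 to 23, 16 of 20 adipocyte genes were higher and 0 lower in day 1 controls (median log2 difference 2.09), where 11.4% of all genes were higher and 9.83% lower. How much of the day 1 difference comes from fat tissue in the control slices was not tested.

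Of 26 fibroblast and matrix genes 15 were lower and 0 higher (median -0.89), and 9 without control replicate 1. Pi16, a marker of adventitial fibroblasts, had 8.15, 3.17, 4.72, 3.38 and 3.27 CPM in 6 Gy tumors, against 50.2, 24.4, 33.6 and 33.9 CPM in control tumors (log2 fold change -2.97 ± 0.38, edgeR adjusted p = 3.94e-05). Dcn, the small proteoglycan decorin, had 77.1, 34.1, 39.4, 49.5 and 43 CPM in 6 Gy tumors, against 221, 85.9, 199.7 and 197 CPM in control tumors (log2 fold change -1.85 ± 0.34, edgeR adjusted p = 0.0013). Pdgfra, a receptor that marks most fibroblasts, fell by less (log2 fold change -0.75 ± 0.12, edgeR adjusted p = 0.000222). Collagen I, the main fibrillar collagen, had Col1a1 levels of 1122, 753, 2093, 1529 and 1341 CPM in 6 Gy tumors, against 5041, 2965, 3250 and 1694 CPM in control tumors (log2 fold change -1.24 ± 0.29, edgeR adjusted p = 0.00712), and control replicate 4 lay among the irradiated tumors. Of 18 matrix protease and inhibitor genes 6 were lower and 1 higher. Adamts5, an aggrecanase, had 8.13, 2.29, 7.38, 4.78 and 4.49 CPM in 6 Gy tumors, against 38, 20.1, 44.4 and 43.6 CPM in control tumors (log2 fold change -2.75 ± 0.37, edgeR adjusted p = 6.63e-05), and the gelatinase gene Mmp2 fell (log2 fold change -0.92 ± 0.16, edgeR adjusted p = 0.000882). The exception was the stromelysin gene Mmp3, which had 194, 174, 463, 478 and 324 CPM in 6 Gy tumors, against 171, 159, 227 and 185 CPM in control tumors (log2 fold change 0.82 ± 0.26, edgeR adjusted p = 0.0375), and its call was lost with housekeeping scaling and without 6 Gy replicate 3, 4 or 5 or control replicate 1, 2 or 4 (edgeR adjusted p up to 0.113).

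Muscle and skin genes gave almost no calls, while 2 nerve and 3 blood genes were lower, beside 9.43% of all genes tested lower. Of 11 Schwann cell and nerve genes 2 were lower, among them Scn7a, a sodium channel (log2 fold change -2.84 ± 0.77, edgeR adjusted p = 0.0175). Of 19 skeletal muscle genes 0 were called by edgeR, 0 at an unadjusted p under 0.05 and 0 by DESeq2, with Ckm, the muscle creatine kinase, at 44.5, 2.52, 213, 5.44 and 0.0416 CPM in 6 Gy tumors, against 66.5, 47.3, 142 and 171 CPM in control tumors (log2 fold change -1.01 ± 1.49, edgeR adjusted p = 0.691). Values ranged widely within the 6 Gy group, where replicate 5 was almost free of muscle RNA. Of 13 skin and hair genes 1 was lower, the hair follicle gene Tchh (log2 fold change -3.02 ± 0.89, edgeR adjusted p = 0.0274), which moved to -1.34 without control replicate 4 and lost its call without 6 Gy replicate 3, 4 or 5 or control replicate 4 (edgeR adjusted p up to 0.291). The keratin gene Krt5 had 222, 99.3, 0.0699, 37 and 84.8 CPM in 6 Gy tumors, against 240, 33.1, 177 and 111 CPM in control tumors and was not called (log2 fold change -0.66 ± 1.85, edgeR adjusted p = 0.844). Of 9 red cell and platelet genes 3 were lower. The count was 6 without 6 Gy replicate 3, and 2 without any other 6 Gy tumor or without control replicate 1, 2 or 3. Pf4, the platelet chemokine that macrophages also make, had 15.2, 13.7, 18.1, 15 and 21.1 CPM in 6 Gy tumors, against 56.6, 63, 59.5 and 42.5 CPM in control tumors (log2 fold change -1.74 ± 0.21, edgeR adjusted p = 2.23e-05), and the hemoglobin gene Hba-a1, which shares reads with its copy Hba-a2, did not pass (log2 fold change -1.33 ± 0.49, edgeR adjusted p = 0.0731).

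Of 18 epithelial genes of the tumor cells 3 were higher and 0 lower (median 0.24), beside 6.15% of all genes tested higher. The higher count was 1 with housekeeping scaling (median 0.07) and 1 without control replicate 3. Epcam, an adhesion molecule of epithelium, measured 334, 399, 481, 398 and 313 CPM in 6 Gy tumors, against 241, 249, 246 and 254 CPM in control tumors (log2 fold change 0.64 ± 0.10, edgeR adjusted p = 0.000418). Every irradiated tumor was above every control, and the call held with housekeeping scaling (0.45). The epithelial transcription factor gene Grhl2 (log2 fold change 0.27 ± 0.08, edgeR adjusted p = 0.0257) and the protease inhibitor gene Spint1 (log2 fold change 0.36 ± 0.11, edgeR adjusted p = 0.0365) rose less, and both calls were lost with housekeeping scaling, without control replicate 3 and with other single tumors left out. The keratin gene Krt8, abundant in all tumors, did not pass (log2 fold change 0.18 ± 0.10, edgeR adjusted p = 0.272).

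With TMM scaling, mitotic genes held the largest share of rises among the lists, whereas with housekeeping scaling clock genes held a larger one (3 of 18). Of 35 genes of G2 and mitosis 14 were higher and 0 lower (median 0.46), beside 6.15% of all genes higher. Under housekeeping scaling 5 were higher (median 0.29). The count ran between 7 without 6 Gy replicate 4 and 27 without 6 Gy replicate 2, and was 9 without control replicate 3 or 6 Gy replicate 5 and 8 without control replicate 4. Many mitotic genes share promoter elements, the CCAAT box bound by NF-Y and the cell cycle genes homology region (CHR) bound by the DREAM and MuvB complexes. To show these elements, the last 150 bases before the transcription start are given 5′ to 3′ for 4 genes that rose, with capitals at each CCAAT (or its complement ATTGG) and each CHR match TTTGAA. Sequences and starts are those of RefSeq on GRCm38.p6 (mm10). Prc1 has 2 listed promoters, and the window with the most matches (the first if tied) is shown, so its matches were favored by the choice.
Ccnb1 (chr13:100786487-100786636, minus strand): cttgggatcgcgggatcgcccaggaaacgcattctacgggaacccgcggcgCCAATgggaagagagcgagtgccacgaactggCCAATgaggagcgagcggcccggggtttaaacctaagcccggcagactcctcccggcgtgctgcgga
Cdk1 (chr10:69352913-69353062, minus strand): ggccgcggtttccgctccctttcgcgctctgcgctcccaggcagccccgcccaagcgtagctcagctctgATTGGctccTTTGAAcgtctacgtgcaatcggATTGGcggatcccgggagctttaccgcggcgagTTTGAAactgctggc
Cenpf (chr1:189688087-189688236, minus strand): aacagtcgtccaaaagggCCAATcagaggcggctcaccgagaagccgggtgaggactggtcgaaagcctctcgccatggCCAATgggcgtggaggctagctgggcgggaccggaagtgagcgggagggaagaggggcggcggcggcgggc
Prc1 (chr7:80294326-80294475, plus strand): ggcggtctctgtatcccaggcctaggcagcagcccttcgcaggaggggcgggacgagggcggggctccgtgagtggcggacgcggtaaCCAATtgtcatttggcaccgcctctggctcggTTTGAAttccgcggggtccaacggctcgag

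In these windows the Ccnb1 and Cenpf stretches hold 2 CCAAT boxes each and no TTTGAA, while the Cdk1 stretch holds 2 ATTGG and 2 TTTGAA matches and the Prc1 stretch 1 CCAAT and 1 TTTGAA. In windows of 300 bases (250 before to 50 after each start, both strands), CCAAT occurred in 84.6% of the 13 windows of the called mitotic genes found in the table (11 of the 14 genes matched), compared with 37.4% of all 32851 windows in the table and 37.3% of the 17104 windows of genes tested here. TTTGAA occurred in 69.2%, 17.9% and 13.4%. Mitotic genes as a whole held them as often, with CCAAT in 86.7% and TTTGAA in 73.3% of the 30 windows of the 27 tested genes matched, called or not. Over all genes called higher the shares were 41.7% and 15.1%, and over genes called lower 33.5% and 13.8%. These are descriptions of sequence only.

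Ccnb1, the cyclin that starts mitosis, measured 95.6, 81.8, 181, 184 and 181 CPM in 6 Gy tumors, against 97.6, 83.1, 79.6 and 64.1 CPM in control tumors (log2 fold change 0.84 ± 0.23, edgeR adjusted p = 0.0176). Its kinase partner Cdk1 had 122, 103, 225, 197 and 179 CPM in 6 Gy tumors, against 124, 109, 100.1 and 80.7 CPM in control tumors (log2 fold change 0.68 ± 0.20, edgeR adjusted p = 0.0271). In both, 6 Gy replicates 3 to 5 stood above every control, and replicates 1 and 2 lay among the controls. Cenpf, a kinetochore protein, had 289, 229.7, 299, 381 and 379 CPM in 6 Gy tumors, against 167, 239, 172 and 201 CPM in control tumors (log2 fold change 0.70 ± 0.15, edgeR adjusted p = 0.00407), and Prc1, which bundles microtubules between separating chromosomes, had 149.5, 121, 169, 188 and 191 CPM in 6 Gy tumors, against 106, 120, 106 and 106 CPM in control tumors (log2 fold change 0.58 ± 0.13, edgeR adjusted p = 0.00426). Dlgap5, a spindle protein, was higher in every irradiated tumor, with 54.4, 48.3, 80.3, 79.5 and 75.2 CPM in 6 Gy tumors, against 42.8, 44.7, 36.7 and 36.9 CPM in control tumors (log2 fold change 0.75 ± 0.14, edgeR adjusted p = 0.00187), as was the phosphatase gene Cdc25c, which activates CDK1 (log2 fold change 0.57 ± 0.12, edgeR adjusted p = 0.00323). Calls on Dlgap5 and Cdc25c held under housekeeping scaling and every tumor left out, whereas Ccnb1 was uncalled without 6 Gy replicate 4 or control replicate 4, Cdk1 without 6 Gy replicate 3, 4 or 5 or control replicate 3 or 4 (edgeR adjusted p up to 0.0922), and Cdk1, Cenpf and Prc1 under housekeeping scaling.

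Genes of DNA replication and histones gave almost no calls. Of 32 replication genes 1 was higher, the clamp loader subunit gene Rfc3 (log2 fold change 0.33 ± 0.11, edgeR adjusted p = 0.0444), a call lost with housekeeping scaling and without 6 Gy replicate 3, 4 or 5 or control replicate 1, 2 or 3 (edgeR adjusted p up to 0.139). The median was 0.02. Mcm2, part of the replicative helicase, had 103, 74.9, 92.6, 90.7 and 112 CPM in 6 Gy tumors, against 118, 111, 85.2 and 76 CPM in control tumors (log2 fold change -0.04 ± 0.12, edgeR adjusted p = 0.853), and Pcna, the sliding clamp, had 137, 104, 239, 216 and 235 CPM in 6 Gy tumors, against 177, 168, 178 and 143 CPM in control tumors (log2 fold change 0.16 ± 0.20, edgeR adjusted p = 0.621). The groups overlapped in both. Of 13 histone genes, most of them replication-dependent copies that share reads, 0 were called by edgeR (median -0.54, 1 lower at an unadjusted p under 0.05 and 0 by DESeq2), with H1f5 at 75.4, 49.6, 184, 104 and 115 CPM in 6 Gy tumors, against 204, 170.4, 183 and 118 CPM in control tumors (log2 fold change -0.68 ± 0.34, edgeR adjusted p = 0.191). With the structural RNA share as a covariate, 7 histone genes were lower.

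Few DNA repair genes passed the test, and those that did changed in small steps. Of 36 tested, 5 were higher and 1 lower (median 0.22), beside 6.15% of all genes tested higher and 9.43% lower. The higher count was 0 under housekeeping scaling, 1 without 6 Gy replicate 4 or 5 or control replicate 1, 3 or 4, 3 without 6 Gy replicate 3 or INDO replicate 5, and 16 without 6 Gy replicate 2. Xrcc5, the Ku80 subunit that binds broken ends, measured 49.4, 39.1, 72, 72.6 and 75.5 CPM in 6 Gy tumors, against 42.6, 43.6, 41.2 and 36.7 CPM in control tumors (log2 fold change 0.59 ± 0.15, edgeR adjusted p = 0.0135). As with the mitotic genes, 6 Gy replicates 3 to 5 stood above the rest. Brca1, of homologous recombination, had 70.4, 55, 55.4, 72.2 and 90.2 CPM in 6 Gy tumors, against 46.9, 55.8, 48.2 and 56.6 CPM in control tumors (log2 fold change 0.40 ± 0.13, edgeR adjusted p = 0.0426), and Fancd2, of crosslink repair (log2 fold change 0.48 ± 0.15, edgeR adjusted p = 0.0367), and the mismatch repair gene Msh6, named after its values were seen (log2 fold change 0.31 ± 0.10, edgeR adjusted p = 0.047), rose with it. The uracil glycosylase gene Ung was lower (log2 fold change -0.53 ± 0.17, edgeR adjusted p = 0.0411). The calls on Brca1, Fancd2, Msh6 and Ung were each lost with several of the 9 tumors left out in turn.

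Of 32 p53 target genes 11 were higher and 2 lower (median 0.20), beside 6.15% of all genes tested higher and 9.43% lower. The higher count was 2 under housekeeping scaling (median 0.03), 6 without control replicate 3 or 4 and 7 without control replicate 1. Cdkn1a, the cell cycle inhibitor p21 and the best known target, did not pass, with 50.4, 49.4, 54.8, 33.2 and 32.4 CPM in 6 Gy tumors, against 45.1, 36.3, 38.5 and 37.6 CPM in control tumors (log2 fold change 0.16 ± 0.17, edgeR adjusted p = 0.553). Mdm2, which turns p53 over, had 70.2, 81, 74.6, 71.1 and 73.9 CPM in 6 Gy tumors, against 55.8, 58.8, 59.7 and 65.4 CPM in control tumors (log2 fold change 0.31 ± 0.07, edgeR adjusted p = 0.00511). Its rise was small but without overlap between the groups, and it was lost under housekeeping scaling (0.14). Ddb2, a sensor of damaged bases, had 14.9, 15.5, 20.2, 19.1 and 17.5 CPM in 6 Gy tumors, against 10.3, 12.6, 11.8 and 11.3 CPM in control tumors (log2 fold change 0.60 ± 0.11, edgeR adjusted p = 0.000827), and its call held under that scaling (0.42, edgeR adjusted p = 0.0178). Polk, a polymerase that copies past lesions, had 47.2, 47.4, 47.7, 48.7 and 50.8 CPM in 6 Gy tumors, against 26.6, 33.4, 38.5 and 39.9 CPM in control tumors (log2 fold change 0.48 ± 0.09, edgeR adjusted p = 0.00191), and Psrc1, a spindle protein, rose (log2 fold change 0.78 ± 0.16, edgeR adjusted p = 0.00326). Larger rises were seen in 2 members named after their values were seen. Gadd45a, a stress protein of the G2 checkpoint, had 13.3, 10.5, 46.2, 34.6 and 16.5 CPM in 6 Gy tumors, against 10.3, 12.5, 11.5 and 8.83 CPM in control tumors (log2 fold change 1.17 ± 0.36, edgeR adjusted p = 0.036), and Eda2r, a receptor of the TNF family, had 4.46, 3.12, 11.2, 7.8 and 7.72 CPM in 6 Gy tumors, against 2.8, 2.55, 3.21 and 2.39 CPM in control tumors (log2 fold change 1.32 ± 0.39, edgeR adjusted p = 0.0288). In both, 6 Gy replicates 1 and 2 were close to the controls, and the calls were lost without 6 Gy replicate 3 or 4 or control replicate 1, 2, 3 or 4 (edgeR adjusted p up to 0.105) for Gadd45a and without 6 Gy replicate 3, 4 or 5 or control replicate 1, 2, 3 or 4 (edgeR adjusted p up to 0.0767) for Eda2r. The members called lower were Sesn1 (log2 fold change -0.42 ± 0.13, edgeR adjusted p = 0.0374) and Btg2 (log2 fold change -0.63 ± 0.15, edgeR adjusted p = 0.00837), also named after their values were seen.

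Of 20 apoptosis genes 2 were higher and 1 lower, beside 6.15% of all genes tested higher and 9.43% lower (1 higher and 2 lower without INDO replicate 5). Bcl2l11, which encodes the killer protein BIM, had 68, 104, 76.7, 79.6 and 69.3 CPM in 6 Gy tumors, against 54.6, 66.7, 54.9 and 66.7 CPM in control tumors (log2 fold change 0.39 ± 0.13, edgeR adjusted p = 0.0457). Its rise was lost under housekeeping scaling, and with single tumors left out the count of higher genes was 0 (without 6 Gy replicate 4 or control replicate 3 or 4) to 4 (without 6 Gy replicate 1 or 2). The TNF receptor gene Tnfrsf1a was lower in every irradiated tumor (log2 fold change -0.58 ± 0.10, edgeR adjusted p = 0.00102).

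Immediate early genes, which respond within minutes to growth factors and stress, were lower where they changed. Of 22 tested, 5 were lower and 0 higher (median -0.36), beside 9.43% of all genes tested lower. The lower count was 3 without 6 Gy replicate 4 or 5 and 8 without 6 Gy replicate 2. Egr1, a growth-factor-induced transcription factor, had 32.2, 25.8, 21.2, 23.4 and 43.2 CPM in 6 Gy tumors, against 53.6, 57.7, 58.3 and 77 CPM in control tumors (log2 fold change -1.08 ± 0.24, edgeR adjusted p = 0.00433), and Zfp36, which destabilizes cytokine mRNAs, had 19.2, 21.5, 12.4, 11.3 and 13.3 CPM in 6 Gy tumors, against 34.7, 30.2, 33.7 and 39.7 CPM in control tumors (log2 fold change -1.16 ± 0.21, edgeR adjusted p = 0.00122). The orphan receptor gene Nr4a3 (log2 fold change -1.28 ± 0.29, edgeR adjusted p = 0.00565) and the AP-1 member Fosl2 (log2 fold change -0.53 ± 0.15, edgeR adjusted p = 0.0231) fell as well, though Fosl2 was uncalled without 6 Gy replicate 3, 4 or 5 or control replicate 4 (edgeR adjusted p up to 0.0783). Fos and Jun, the founding AP-1 genes, were not called (-0.56, edgeR adjusted p = 0.153, and -0.37, edgeR adjusted p = 0.138).

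Clock output genes moved without one direction, with 4 of 18 higher and 1 lower (median 0.19). All genes tested had 6.15% higher and 9.43% lower. INDO tumors, which were not irradiated, also had 4 higher and 1 lower against the same controls, with a median of 0.19. In 6 Gy + INDO tumors 5 were higher and 2 lower, and in 6 Gy directly against INDO tumors 2 were higher and 0 lower. Bhlhe41, a repressor of the clock, had 16.9, 20.9, 31.1, 23 and 16.8 CPM in 6 Gy tumors, against 12.6, 15.8, 10.6 and 11 CPM in control tumors (log2 fold change 0.80 ± 0.16, edgeR adjusted p = 0.00239), and Tef, a clock-driven transcription factor, had 46.2, 49.6, 41, 44.4 and 43.3 CPM in 6 Gy tumors, against 29.8, 28.9, 29.8 and 32.1 CPM in control tumors (log2 fold change 0.58 ± 0.13, edgeR adjusted p = 0.00448). Nr1d2 (log2 fold change 0.60 ± 0.14, edgeR adjusted p = 0.00565) and Per3, named after its values were seen (log2 fold change 0.77 ± 0.18, edgeR adjusted p = 0.00648), rose too, while Npas2, a partner of BMAL1, fell (log2 fold change -1.26 ± 0.27, edgeR adjusted p = 0.00426). The core gene Per1 (log2 fold change -0.21 ± 0.16, edgeR adjusted p = 0.413) and the output gene Dbp (log2 fold change 0.67 ± 0.29, edgeR adjusted p = 0.127) were not called. The hour at which each tumor was taken was not used here.

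Of 23 oxidative stress and ferroptosis genes 2 were higher and 3 lower. Over all genes tested 6.15% were higher and 9.43% lower, which stands beside this and the other list counts in this paragraph. Sod3, the extracellular superoxide dismutase made by vessels and stroma, had 6.61, 3.54, 2.81, 2.55 and 2.62 CPM in 6 Gy tumors, against 31.1, 20.6, 23.9 and 24.2 CPM in control tumors (log2 fold change -2.79 ± 0.39, edgeR adjusted p = 9.78e-05), and the heme oxygenase gene Hmox1 fell (log2 fold change -1.0 ± 0.24, edgeR adjusted p = 0.00895). Acsl4, which loads membranes with oxidizable lipids, had 279, 363, 691, 533 and 348 CPM in 6 Gy tumors, against 257, 275, 318 and 276 CPM in control tumors (log2 fold change 0.65 ± 0.19, edgeR adjusted p = 0.0231), and the glutathione transferase gene Gsta4 rose as well (log2 fold change 0.76 ± 0.21, edgeR adjusted p = 0.0218), both uncalled under housekeeping scaling and without 6 Gy replicate 4 or control replicate 1 or 4. Of 23 hypoxia and glycolysis genes 1 was higher, the oxygen sensor gene Egln3 (log2 fold change 0.74 ± 0.19, edgeR adjusted p = 0.0111, 0.55 and uncalled under housekeeping scaling), with 3 higher without 6 Gy replicate 5. Car9, a hypoxia-induced carbonic anhydrase, had 67.4, 124, 76.2, 52.7 and 37.4 CPM in 6 Gy tumors, against 25.6, 35, 42.1 and 46.4 CPM in control tumors (log2 fold change 0.94 ± 0.32, edgeR adjusted p = 0.0534) and the glucose transporter gene Slc2a1 was not called (log2 fold change 0.21 ± 0.22, edgeR adjusted p = 0.553). Of 21 genes of cholesterol and fatty acid synthesis 1, Sqle, was higher (log2 fold change 0.20 ± 0.07, edgeR adjusted p = 0.049), and of 22 heat shock and unfolded protein genes 1, Sdf2l1, was lower (log2 fold change -0.54 ± 0.16, edgeR adjusted p = 0.0292), each call being lost with several single tumors left out, among them 6 Gy replicate 4 and control replicate 4. Of 20 nuclear genes of the respiratory chain 0 were called by edgeR, 0 at an unadjusted p under 0.05 and 0 by DESeq2. Of 17 ribosomal protein genes 3 were higher (median 0.42), namely Rps6 (log2 fold change 0.42 ± 0.11, edgeR adjusted p = 0.0155), Rpl7 (0.45, edgeR adjusted p = 0.0275) and Rpl4 (0.29, edgeR adjusted p = 0.0452), with 0 under housekeeping scaling, 8 without 6 Gy replicate 1 or 2 and 1 without any other 6 Gy tumor or without control replicate 2, 3 or 4. Of the 14 housekeeping genes 1, Tbp, was higher (log2 fold change 0.34 ± 0.10, edgeR adjusted p = 0.0206) and the list median was 0.19, with Actb at 3749 ± 663 CPM in 6 Gy tumors and 4274 ± 560 CPM in controls (-0.19, edgeR adjusted p = 0.336) and Gapdh at 845 ± 188 CPM in 6 Gy tumors and 749 ± 45.9 CPM in controls (0.17, edgeR adjusted p = 0.485).

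The prostaglandin pathway, the target of INDO, had 8 of 21 genes lower and 1 higher, beside 9.43% of all genes tested lower and 6.15% higher. Without control replicate 1, 5 were lower. Of 7 prostaglandin receptor genes 5 were lower, and neither cyclooxygenase gene was called. Ptgs2, the gene of COX2, had 85.7, 112, 89.8, 79.6 and 79.2 CPM in 6 Gy tumors, against 80.7, 106, 114 and 118 CPM in control tumors (log2 fold change -0.23 ± 0.14, edgeR adjusted p = 0.294), and Ptgs1, that of COX1, was not called either (log2 fold change 0.33 ± 0.13, edgeR adjusted p = 0.0901). Ptgfr, the receptor of prostaglandin F2alpha, had 2.8, 0.848, 0.713, 0.891 and 1.36 CPM in 6 Gy tumors, against 6.81, 3.08, 8.24 and 7.53 CPM in control tumors (log2 fold change -2.28 ± 0.46, edgeR adjusted p = 0.00234), and the prostaglandin E2 receptor gene Ptger2 fell (log2 fold change -0.88 ± 0.19, edgeR adjusted p = 0.00378). The 1 member called higher was the phospholipase gene Pla2g4a, named after its values were seen (log2 fold change 0.43 ± 0.14, edgeR adjusted p = 0.0419), a call lost under housekeeping scaling and without 6 Gy replicate 3, 4 or 5 or control replicate 1, 2, 3 or 4 (edgeR adjusted p up to 0.101).

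Of 22 Wnt pathway genes 2 were higher and 7 lower (median -0.34), with 3 lower without control replicate 1 or 3. Over all genes tested 6.15% were higher and 9.43% lower, which stands beside each list count in this paragraph. The count for Notch, BMP and TGF-beta targets lies close to the share of all genes lower. The secreted antagonist gene Sfrp2 had 3.11, 1.5, 2.67, 2.75 and 2.48 CPM in 6 Gy tumors, against 30.6, 13.8, 28.5 and 12.4 CPM in control tumors (log2 fold change -3.09 ± 0.51, edgeR adjusted p = 0.000446), and the pathway targets Axin2 (log2 fold change -0.83 ± 0.24, edgeR adjusted p = 0.0272) and Lgr5 (log2 fold change -1.5 ± 0.41, edgeR adjusted p = 0.0185) fell, with Axin2 uncalled without 6 Gy replicate 3 or 4 or control replicate 1 or 3 (edgeR adjusted p up to 0.113) and Lgr5 without control replicate 3. Notum, a secreted enzyme that inactivates Wnt ligands, rose, with 6.89, 6.93, 6.34, 5.93 and 3.38 CPM in 6 Gy tumors, against 3.06, 2.78, 3.01 and 2.56 CPM in control tumors (log2 fold change 1.05 ± 0.28, edgeR adjusted p = 0.0175), as did the ligand gene Wnt7b, named after its values were seen (log2 fold change 0.41 ± 0.14, edgeR adjusted p = 0.047), though Wnt7b was uncalled under housekeeping scaling and without 6 Gy replicate 3 or 4 or control replicate 3 or 4 (edgeR adjusted p up to 0.156), and Notum without control replicate 4 (edgeR adjusted p up to 0.0519). Of 10 EGF family genes 2 were lower, the receptor gene Egfr, with 35.8, 22.3, 22.2, 22.9 and 25.4 CPM in 6 Gy tumors, against 52.4, 38.2, 57.2 and 53.6 CPM in control tumors (log2 fold change -0.97 ± 0.22, edgeR adjusted p = 0.00528), and the ligand gene Nrg1 (log2 fold change -1.19 ± 0.20, edgeR adjusted p = 0.000659), while the ligand Areg was not called (log2 fold change 0.26 ± 0.15, edgeR adjusted p = 0.269). Of 16 senescence and secretory genes 3 were lower, Il6, the protease inhibitor gene Timp1 (log2 fold change -0.60 ± 0.16, edgeR adjusted p = 0.0144) and Igfbp5 (log2 fold change -1.81 ± 0.50, edgeR adjusted p = 0.0206, uncalled without control replicate 3), and 1, Mmp3, higher. Of 18 targets of Notch, BMP and TGF-beta 2 were lower, the matrix protein gene Tgfbi (log2 fold change -1.08 ± 0.20, edgeR adjusted p = 0.000994) and Heyl (log2 fold change -0.95 ± 0.32, edgeR adjusted p = 0.0472), the second uncalled without 6 Gy replicate 1, 2 or 5 or control replicate 1, 2 or 3 (edgeR adjusted p up to 0.153). Of 14 glucocorticoid-responsive genes 2 were lower, the phosphatase gene Dusp1 (log2 fold change -0.61 ± 0.20, edgeR adjusted p = 0.0415), uncalled without 6 Gy replicate 1, 4 or 5 or control replicate 1, 2, 3 or 4 (edgeR adjusted p up to 0.106), and Sult1a1 (log2 fold change -1.56 ± 0.34, edgeR adjusted p = 0.00412).

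Falls in immune, vessel and fat genes were called in all 3 treated groups of day 1, and rises in mitotic genes in both irradiated groups. Because 6 Gy, INDO and 6 Gy + INDO were set against the same 4 controls, values are given side by side and their likeness was not tested. In INDO replicate 5, 39624 genes were detected, where the other day 1 tumors had 27090 to 30350, and its olfactory and vomeronasal receptor genes summed to 345 CPM, where the others had 64 to 132 CPM. Without it, 6 Gy gave 1267 genes higher and 2072 lower against control, and the calls on Bcl2l11, Brca1, Heyl, Msh6, Rfc3, Rpl4, Sqle and Wnt7b were lost (edgeR adjusted p = 0.0501 to 0.0553), while Car9 was called higher (edgeR adjusted p = 0.0424). INDO gave 1294 genes higher (5.81%) and 1981 lower (8.89%), or 1093 and 1729 without INDO replicate 5, and 6 Gy + INDO 2389 higher (10.7%) and 2972 lower (13.3%). Of 27 T cell genes, 24 were lower in the 6 Gy group, 22 in the INDO group and 24 in the 6 Gy + INDO group, with medians of -1.90, -1.97 and -2.61. Of 25 endothelial genes, 20 were lower in the 6 Gy group, 17 in the INDO group and 19 in the 6 Gy + INDO group, with medians of -1.04, -0.99 and -1.03. Of 20 adipocyte genes, 16 were lower in the 6 Gy group, 10 in the INDO group and 14 in the 6 Gy + INDO group, with medians of -2.63, -1.92 and -2.41. Of 15 complement genes, 12 were lower in the 6 Gy group, 10 in the INDO group and 11 in the 6 Gy + INDO group, with medians of -1.59, -1.07 and -1.57. In the mitotic list, 14 of 35 genes were higher in the 6 Gy group, 0 in the INDO group and 15 in the 6 Gy + INDO group, with medians of 0.46, 0.03 and 0.40. In the INDO group 1 mitotic gene was higher at an unadjusted p under 0.05. The medians over all genes tested were 0.06, 0.04 and 0.02. Cxcl12 changed by -3.43, -3.61 and -3.25 on the log2 scale in these 3 groups, Adipoq by -4.61, -4.11 and -4.21, and Cd3e by -2.72, -2.35 and -3.38.

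The direct test of 6 Gy against INDO, with no control tumor in the contrast but all 19 tumors in the fit, called 1516 genes higher (6.81%) and 749 lower (3.36%) in 6 Gy tumors (112 and 1761 with housekeeping scaling, 921 and 462 without INDO replicate 5). Mitotic genes were higher in 16 of 35 cases, or 10 without INDO replicate 5, and lower in 0. Ccnb1 differed by 1.06 ± 0.21 (edgeR adjusted p = 0.0118), Eda2r by 2.08 ± 0.38 (edgeR adjusted p = 0.00893) and Cdkn1a by 0.66 ± 0.16 (edgeR adjusted p = 0.0183). Of the p53 targets 9 of 32 were higher and 0 lower in 6 Gy tumors than in INDO tumors, or 8 and 0 without INDO replicate 5. Against control, INDO tumors had 2 p53 targets higher and 8 lower (median -0.08), or 1 and 5 without INDO replicate 5. Cdkn1a was not called in 6 Gy tumors against control. The direct test does not separate rises after 6 Gy from falls with INDO. Of the histone genes 8 of 13 were lower in 6 Gy than in INDO tumors, or 0 without INDO replicate 5 (9 at an unadjusted p under 0.05). By contrast, 0 of 27 T cell genes, 0 of 25 endothelial genes and 1 of 20 adipocyte genes were called in this test, with medians of -0.06, -0.06 and -0.55, beside -0.04 for all genes. At an unadjusted p under 0.05 there were 1 T cell gene (lower) and 1 endothelial gene higher and 3 lower. The inhibited enzyme's gene Ptgs2 was higher in 6 Gy tumors than in INDO tumors (log2 fold change 0.78 ± 0.14, edgeR adjusted p = 0.00751), and so were Ccl9 (log2 fold change 1.09 ± 0.14, edgeR adjusted p = 0.00123) and Pf4 (log2 fold change 0.96 ± 0.20, edgeR adjusted p = 0.012), whereas Ighm was lower (log2 fold change -1.72 ± 0.34, edgeR adjusted p = 0.0117).

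**Figure D3:**
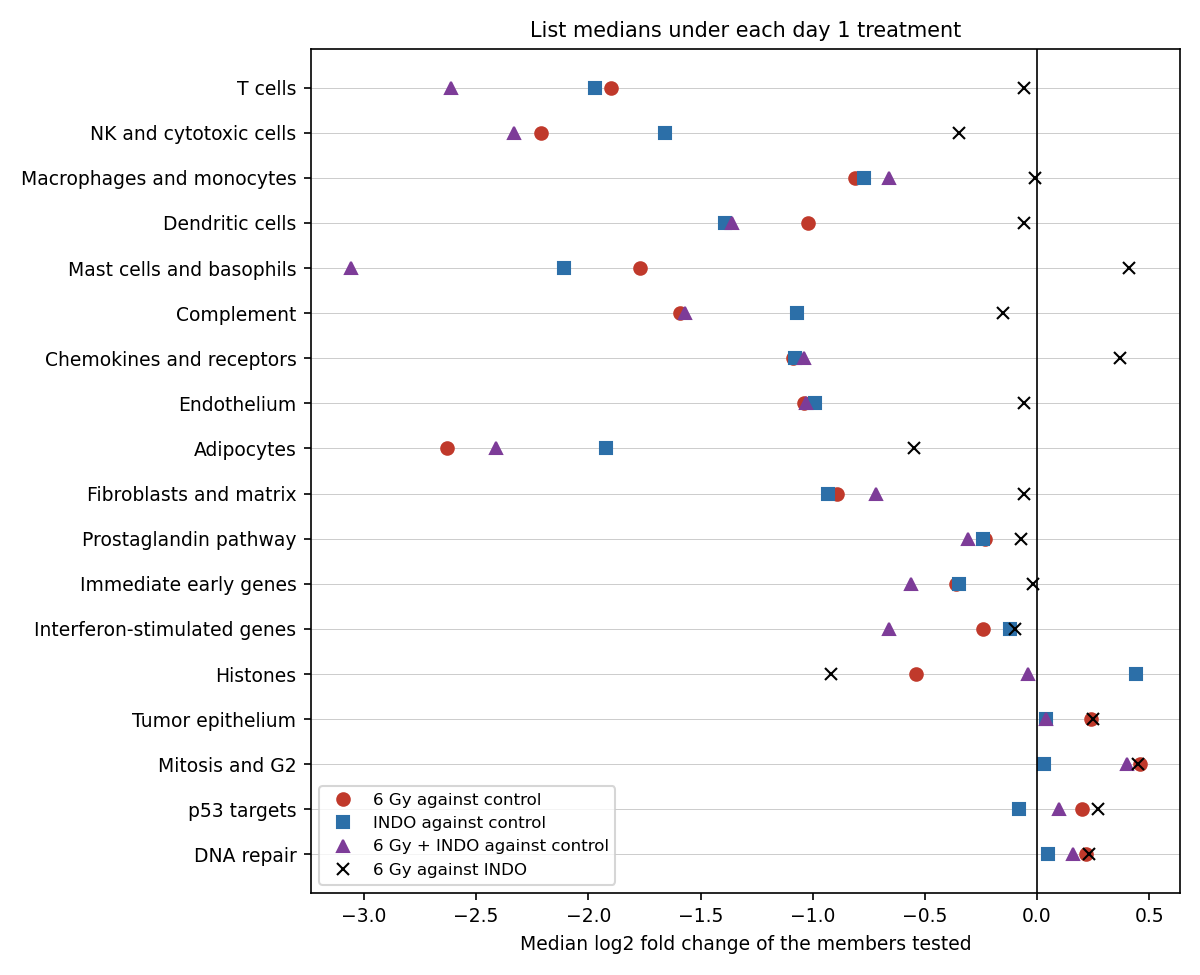
Median log2 fold change of 18 gene lists (horizontal axis) for 6 Gy (circles), INDO (squares) and 6 Gy + INDO (triangles), each against the same 4 day 1 controls, and for 6 Gy against INDO directly (crosses). Adipocyte medians lie at -2.63, -1.92 and -2.41 in the 3 treated groups and the mitotic medians at 0.46, 0.03 and 0.40.

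Whether day 1 differed from later days was tested in 1 fit of 45 tumors and 24102 genes, as the 6 Gy effect on day 1 minus its mean on days 3 to 23. The effect was more positive on day 1 for 0 genes (0%) and more negative for 4 (0.0166%) by edgeR, with 1036 and 1300 genes at an unadjusted p under 0.05. For Dab2 the log2 difference of effects was -1.22 ± 0.21 (edgeR adjusted p = 0.0162) and for Nek10, a kinase gene of low level, -2.46 ± 0.42 (edgeR adjusted p = 0.0162), both named after their values were seen. The remaining 2 were the unnamed model Gm46223 and Usp17lc, a member of a multicopy family. Single tumors decided this count, with 12 more negative without 6 Gy replicate 1, 0 without 6 Gy replicate 2, 3 or 4 or control replicate 4, 1 without control replicate 3, and 2 without 6 Gy replicate 5 or control replicate 1. List medians of the 6 Gy change by day come from the same fit and are given as a description. T cell genes had medians of -1.92, -0.82, -1.69, -0.41 and -1.06 on days 1, 3, 7, 15 and 23. Endothelial genes had medians of -1.07, -1.07, -1.56, 0.27 and -0.68 on days 1, 3, 7, 15 and 23. Adipocyte genes had medians of -2.66, -1.29, -1.48, -0.26 and -0.89 on days 1, 3, 7, 15 and 23. Mitotic genes had medians of 0.44, 0.37, 0.21, -0.26 and 0.17 on days 1, 3, 7, 15 and 23. Interferon-stimulated genes had medians of -0.26, 1.34, -0.15, -0.12 and -0.23 on days 1, 3, 7, 15 and 23.

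**Figure D4:**
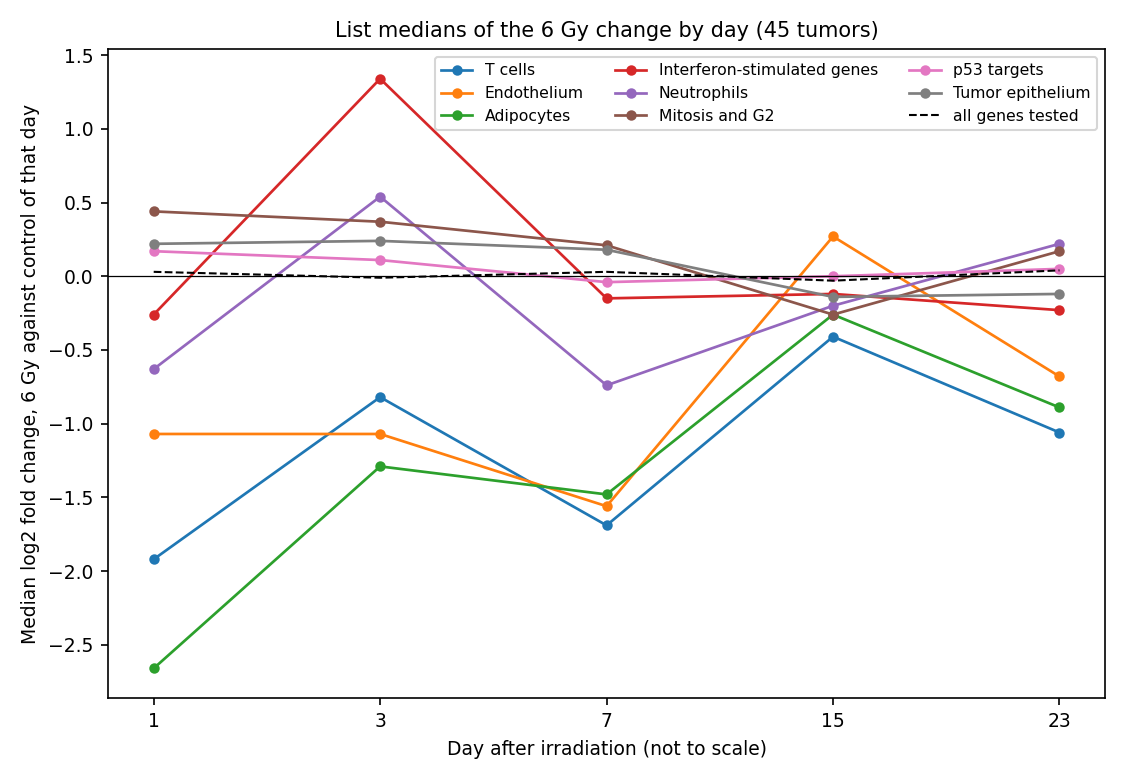
Median log2 fold change of 8 gene lists in 6 Gy tumors against the controls of the same day (vertical axis) on days 1, 3, 7, 15 and 23 after IR (horizontal axis, not to scale), from the fit of 45 tumors, with the median of all genes tested as a dashed line. The interferon-stimulated list lies at -0.26 on day 1 and 1.34 on day 3.

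The day 1 controls also differed from later controls, which bears on every day 1 comparison. Against the mean of controls on days 3 to 23, 2742 genes were higher (11.4%) and 2369 lower (9.83%) in day 1 controls. 8 of 14 mast cell genes and 11 of 35 mitotic genes were higher, while 16 of 23 hypoxia genes, 12 of 17 neutrophil genes and 8 of 11 MHC class II genes were lower. Several other lists with falls after 6 Gy had more genes higher than lower in day 1 controls. There were 7 higher and 3 lower of 27 T cell genes, 8 higher and 1 lower of 25 endothelial genes and 9 higher and 1 lower of 27 fibroblast and matrix genes. Macrophage genes had 8 higher and 1 lower of 23, dendritic cell genes 7 higher and 2 lower of 18 and chemokine genes 9 higher and 4 lower of 28. The part of these differences in the day 1 comparison was not tested. Adipoq differed by 3.15 ± 0.61 (edgeR adjusted p = 0.000278) and Cfd by 4.08 ± 0.61 (edgeR adjusted p = 1.05e-05). Cd3e (0.77, edgeR adjusted p = 0.204) and Cdh5 (0.27, edgeR adjusted p = 0.386) were not called in this test.

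**Figure D5:**
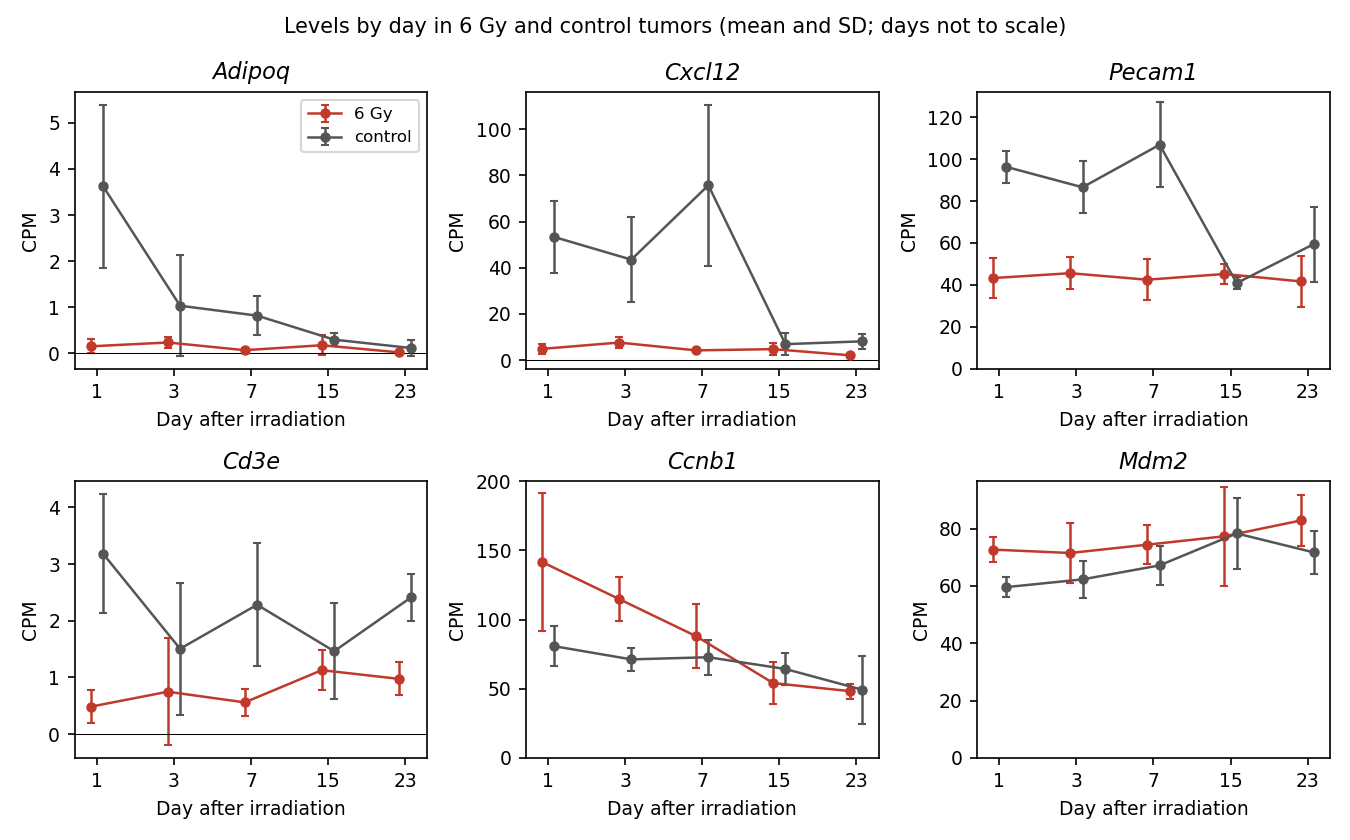
Mean and SD of CPM (vertical axis) of 6 genes in 6 Gy (red) and control (gray) tumors on each day after IR (horizontal axis, not to scale). Adipoq averaged 0.148 CPM in 6 Gy tumors and 3.63 CPM in controls on day 1, and 0.232 CPM and 1.03 CPM on day 3.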

How the data were processed

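Total RNA of 94 4T1 tumors was sequenced. Per the submitters' processing notes, cutadapt, STAR, Partek 11.0.24.0328 and mm10 were used. Neither the counting tool nor the annotation is given in the sources used here. The authors deposited expected counts of 49080 genes, 84.5% of them whole. These were rounded to whole numbers, filtered with filterByExpr and scaled by TMM, and no replicates were pooled. One edgeR 4.0.16 fit (quasi-likelihood F test, R 4.3.3) held the 19 day 1 tumors with a mean per group, and a second fit held 45 tumors over 5 days. Genes were called at a Benjamini-Hochberg adjusted p under 0.05 over all genes tested. Each SE was computed as the log2 fold change divided by the square root of its F value. CPM use TMM library sizes. The authors' Partek test and their unnamed housekeeping genes were not used here. Where the sources differ on the library kit, both name a stranded total RNA kit.

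Members and the 45 lists were chosen with earlier results of these data known. Named genes are the 15 largest rises and falls among called genes with a mean log2 CPM of at least 1, no overlap of the groups and no predicted-gene symbol, the first 2 genes of each list, and up to 4 called genes a list by p, a few of which are not reported here. Alternatives were RLE size factors, scaling by 14 housekeeping genes, structural and mitochondrial RNA left out, no filter, DESeq2 1.42.0, other sets of tumors, a replicate block, the study's limits (unadjusted p under 0.05 and 2-fold) and each tumor left out. The structural RNA share as a covariate, 6 Gy replicate 3 and control replicate 2 left out together, day 15 control replicate 1 left out, and INDO replicate 5 left out were chosen after seeing the data. The calls were tested on simulated data. No 2 libraries agreed within sampling noise. Promoters are RefSeq sequences of GRCm38.p6, 1 entry or more for 13546 of the 22276 genes tested, matched by symbol. No deposited column was left without a sample.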

Additional observations from a re-analysis of the deposited data

Results flagged for a closer look

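Of 362 groups of values checked for a sample far from its group, 30 (8.29%) had one. The limits used give about 1 in 20 by chance for independent, normally distributed values. CPM of chosen and related genes need not be so, and no excess over chance is read from this share. In 6 Gy replicate 1, 13 genes stood far above the other 6 Gy tumors, at 0.413 CPM for Adipoq, 1.61 for Cd209a, 4.43 for Cd209e, 2.2 for Cd209g, 2.44 for Cfd, 0.478 for Cidec, 35.8 for Egfr, 45.3 for Enpp2, 9.06 for Hp, 1.78 for Saa3, 8.76 for Serpina3n, 6.61 for Sod3 and 0.848 for Tchh. Most of these are genes of fat, stroma and myeloid cells, and each lay below the mean of the controls. Control replicate 2 stood far below the other controls for Adipoq (1.01 CPM), C1s1 (13), Car3 (13.7), Ighm (2.50) and Rgs5 (70.8), and above them for Prc1 (120.0). In 6 Gy replicate 3, Ckm (213 CPM) and Hba-a1 (6.08) were far above and Grhl2 (60.6) far below the group. Control replicate 4 was far above its group for Col6a5 (87.1 CPM), Nek10 (0.701) and Tchh (9.55), and control replicate 1 was far above for Fos (15.8) and far below for Tbp (25.2). Further single values far from their group were Ptx3 at 0.399 CPM in 6 Gy replicate 2, Rnu3a at 520 CPM in 6 Gy replicate 4 and Notum at 3.38 CPM in 6 Gy replicate 5. The effect of 6 Gy on Dab2 and on Nek10 differed between day 1 and the later days, by -1.22 and -2.46 on the log2 scale in the edgeR test of the difference itself.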

How the results depend on the processing

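The counts of calls on day 1 showed more falls than rises under every alternative run, though by 1 gene only without 6 Gy replicate 2 (2204 higher and 2205 lower). Higher and lower calls, 1370 and 2100 as reported, were 256 and 2756 with housekeeping scaling, 909 and 2243 without structural and mitochondrial RNA, 479 and 1870 without a filter, 376 and 1596 with only the 9 tumors, 580 and 1354 with all 94 tumors, 259 and 1662 under the study's limits, and 1780 and 2439 with DESeq2. Single tumors left out gave 716 to 2204 higher and 1618 to 2205 lower calls. Same-numbered tumors showed no clear likeness, with correlations of their deviations of 0.04, 0.09, -0.03 and -0.16. So few values cannot exclude a pairing or shared batch. A replicate block gave 963 higher and 1974 lower calls. For the day 1 effect minus the later mean, genes more negative on day 1 were 19 with housekeeping scaling, 2 with the replicate block and 0 to 12 with single tumors left out, and genes more positive 0 to 1. Day 1 controls against later controls gave 5571 genes higher and 943 lower with housekeeping scaling, and 1836 to 2187 higher and 1733 to 1955 lower with single tumors left out. Rises and falls against INDO were 112 and 1761 under housekeeping scaling, but 921 and 462 when INDO replicate 5 was left out. The difference in structural RNA share was 5.43 to 8.03 percentage points with single tumors left out, and 8 of these 9 exact tests missed the threshold. That of mitochondrial share was -0.602 to 0.303 points. Of 3750 alternative values of named genes, 3218 kept their direction and side of the threshold, 495 lost and 23 gained a call, and 14 changed sign, none of them called. The sign changes were Ccl2 at 0.01, Slc2a1 at -0.01 and Vegfa at -0.18 without 6 Gy replicate 2; Cdkn1a at 0.00, Gapdh at -0.01, Pcna at -0.01 and Vegfa at -0.11 with housekeeping scaling; Cdkn1a at 0.00 with the structural RNA share as a covariate; Krt5 at 0.21 with the replicate block; Vegfa at 0.00 without control replicate 3; and Mcm2 at 0.07, 0.03 and 0.04 without control replicate 1, control replicate 2 or 6 Gy replicate 2, and 0.03 without 6 Gy replicate 3 and control replicate 2. The causes were not tested. With single tumors left out these genes ran from -0.36 to 0.01 (Ccl2), -0.15 to 0.07 (Mcm2), -0.01 to 0.32 (Slc2a1) and -0.18 to 0.17 (Vegfa). Genes below about 1 CPM rest on few counts.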
